A study of Drosophila melanogaster with 12 samples.

Results

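The genes described here encode 5 lipases (bmm, Hsl, Lip3, Lip4 and mag) and the 2 perilipins that coat lipid droplets (Plin1 and Plin2) of Drosophila melanogaster. They were chosen by name, with earlier results of these data known, as 7 of the 17185 gene IDs counted in every library. Each was matched to its FlyBase ID by symbol. RNA-seq was run on whole larvae of 4 genotypes, with 3 libraries of each, to ask how larvae respond to loss of glycerol-3-phosphate dehydrogenase (Gpdh1) alone or together with lactate dehydrogenase (Ldh), enzymes that both regenerate NAD+ during glycolysis. Double mutants were Gpdh1[12]/Gpdh1[14]; Ldh[16]/Ldh[17], and their controls were double heterozygotes, Gpdh1[12]/+; Ldh[16]/+. Gpdh1 mutants were Gpdh1[12]/Gpdh1[14], and their controls were Gpdh1 heterozygotes, Gpdh1[12]/+. All larvae were w[1118], all carried at least 1 copy of Gpdh1[12], and no group was wild type for Gpdh1. Eggs were kept for 60 h at 25 °C and the larvae were labelled mid-L3, whereas the study elsewhere describes the RNA-seq samples as pools of mid-L2 larvae, so the stage is not settled by these sources. Each library is RNA of whole larvae, in which fewer cells of a type and less RNA per cell cannot be told apart. The study reports a developmental arrest of double mutants. Because all groups were collected at the same age, genotype and developmental progress cannot be told apart either.

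Triglyceride is stored in lipid droplets, mainly in the fat body, and is released as fatty acids by lipases at the droplet surface. Brummer (bmm) is the fly ortholog of adipose triglyceride lipase and acts at the droplet, as does Hsl, the ortholog of hormone-sensitive lipase. Plin1 and Plin2 sit on the droplet surface: Plin1 takes part in hormone-stimulated lipolysis and helps to recruit Hsl, while Plin2 shields stored fat from lipolysis. Magro (mag) is a secreted lipase of the gut that digests dietary fat and also acts on sterol esters, and its gene is a target of the nuclear receptor Hr96. Lip3 and Lip4 belong to the acid lipase family, and transcripts of Lip3 are known to rise when larvae are starved.

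In the BDGP6.54 annotation, mag lies on chromosome 3L (20460683 to 20462274, plus strand), bmm on 3L (14776496 to 14786412, minus strand), Lip3 on 3R (13370240 to 13371904, minus strand) and Lip4 on 2L (10527572 to 10531778, plus strand). Hsl lies on 2R (20257650 to 20261726, plus strand), Plin1 on 3R (23763857 to 23766662, plus strand) and Plin2 on X (15069127 to 15076220, minus strand). Exons of Lip3 share 107 bases with the antisense gene CheA87a, and exons of Plin1 share 144 bases with the antisense gene CG10214. Whether the counting used strand is not given in the sources used here, so reads in those stretches cannot be assigned with certainty. The other 5 genes share no exon bases with another annotated gene.

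Libraries held 22339930 to 26605495 counts in genes. Levels are given as counts scaled to library size (CPM), with TMM factors over all 12 libraries. Gpdh1 itself had 61.4 ± 0.530 CPM in double mutants, against 483 ± 32.9 CPM in double heterozygotes, and 268 ± 31.3 CPM in Gpdh1 mutants, against 483 ± 61.5 CPM in Gpdh1 heterozygotes (SD, n = 3 each). Ldh had 3.93 ± 0.322 CPM in double mutants, against 447 ± 9.03 CPM in double heterozygotes. Gpdh1 shares exon bases with an antisense RNA, lncRNA:CR44986. Spread between libraries of a group differed: the common biological coefficient of variation was 0.0373 in double mutants and 0.212 in double heterozygotes, with 0.0995 in Gpdh1 mutants and 0.141 in Gpdh1 heterozygotes. Replicate 2 of the double heterozygotes stood apart from the other 2 libraries of its group, with a chi-square of 85.5 and 118 per gene against 23.9 between those 2, where sampling noise alone gives about 1. Labels give no batch. The study calls the libraries of a group biological replicates, each of pooled larvae, and neither it nor the labels say whether the pools came from separate cultures, so p-values measure only the spread between these libraries.

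In double mutants, transcripts of mag, Lip3 and bmm rose and those of Plin1, Plin2 and Hsl fell, relative to double heterozygotes. For bmm and Plin2 the double heterozygotes were the group that lay apart, and double mutants overlapped with Gpdh1 mutants and with Gpdh1 heterozygotes. Mean bmm was 19.5 CPM in double heterozygotes, against 36.0 CPM in Gpdh1 heterozygotes, and mean Plin2 was 160 against 111 CPM. Double heterozygotes also lay apart for Plin1, as the highest group, with a mean of 230 CPM, against 174 CPM in Gpdh1 heterozygotes. For Plin1, double mutants overlapped with Gpdh1 mutants but lay below Gpdh1 heterozygotes. Whether these calls stem from the mutants or from their controls was not tested. The largest changes among the 7 genes were 5.74-fold for mag and 4.76-fold for Lip3, while Plin1, the droplet coat protein, fell to 0.525 of the control level. In total 3 of the 7 genes passed the test upward and 3 downward, where 25.3% of the 10650 genes tested were called higher and 25.9% lower (34.8% and 13.7% when libraries were scaled by size alone, which moved the median log2 fold change of all genes by 0.16). Their median log2 fold change was 0.53, against -0.03 over all genes tested. Tests were edgeR's quasi-likelihood test with Benjamini-Hochberg adjustment over all genes tested and a threshold of 0.05, and all 7 genes passed the filter on low counts in every comparison. In Gpdh1 mutants, none of the 7 genes passed that test relative to Gpdh1 heterozygotes, where 17.9% of 10592 genes were called higher and 20.2% lower (33.7% and 11.9% when scaled by size alone, with the median moved by 0.16). The libraries of the 2 groups lay apart for all 7 genes in the double mutant comparison, with 4 higher and 3 lower in double mutants, where 30.7% of all genes tested lay apart upward and 31.4% downward. In the Gpdh1 mutant comparison they lay apart for mag and Hsl, both lower in mutants, where 27.6% of all genes lay apart downward. Before adjustment edgeR gave a p under 0.05 in Gpdh1 mutants for 1 gene, Lip4, and DESeq2 called 2 genes lower, Lip4 (adjusted p = 0.0204) and mag (adjusted p = 0.0427).

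**Figure D1:**
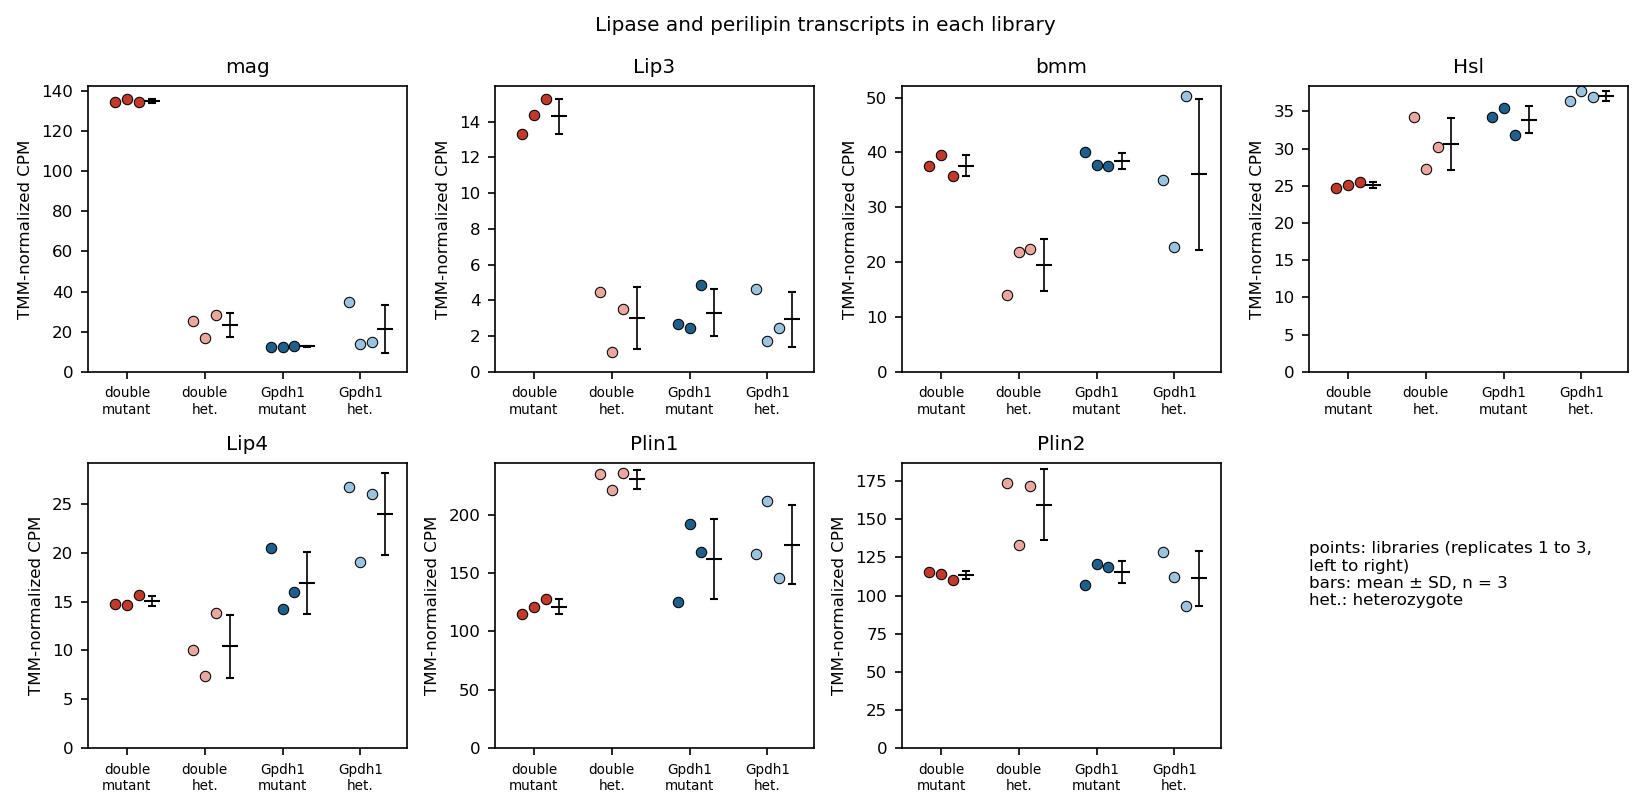
Normalized CPM of each gene (y axes, from 0) in the 3 libraries of each of the 4 genotypes (x axes), with points for libraries and bars for the mean ± SD (n = 3). The 3 double mutant libraries lie above all other libraries for mag (134 to 136 CPM) and Lip3 (13.3 to 15.2 CPM) and below all others for Hsl (24.7 to 25.5 CPM).

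mag, the secreted gut lipase, had 135, 136 and 134 CPM in double mutants, against 25.1, 16.8 and 28.5 CPM in double heterozygotes. Every double mutant library was thus well above every control library, and the double mutant libraries were nearly equal (coefficient of variation 0.716%). Its log2 fold change was 2.52 (SE 0.189, 95% interval 2.07 to 2.98, adjusted p = 0.000114), and 132 of the 10650 genes tested had a higher one. In Gpdh1 mutants mag had 12.5, 12.6 and 12.9 CPM, against 34.9, 13.9 and 15.01 CPM in Gpdh1 heterozygotes. These groups did not overlap either, but here the mutants were the lower group, and replicate 1 of the controls stood well above the other controls. The log2 fold change of -0.75 (SE 0.339, 95% interval -1.55 to 0.05) did not pass (adjusted p = 0.123), and without that library it was -0.19 (adjusted p = 0.112). The difference between the effects of the double and the single mutation, fitted over all 12 libraries, was 3.28 on the log2 scale (SE 0.434, adjusted p = 0.00054). In that comparison 12% of the 10880 genes tested were called higher and 13.5% lower.

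Lip3, an acid lipase family gene, followed mag in the double mutants at a lower level. It had 13.3, 14.4 and 15.2 CPM in double mutants, against 4.44, 1.10 and 3.52 CPM in double heterozygotes. In raw reads this was 370 to 449 counts in the double mutants, against 29 to 107 counts in the double heterozygotes. The groups did not overlap, and the log2 fold change was 2.25 (SE 0.401, 95% interval 1.29 to 3.22, adjusted p = 0.00406). Lip3 was at 2.67, 2.43 and 4.84 CPM in Gpdh1 mutants, against 4.63, 1.71 and 2.44 CPM in Gpdh1 heterozygotes. Those groups overlapped throughout, with a log2 fold change of 0.17 (95% interval -0.78 to 1.12, adjusted p = 0.769). The effects differed by 2.09 (SE 0.634, adjusted p = 0.0341). This last call was lost when any 1 of 6 libraries was left out, namely replicate 1 of the Gpdh1 heterozygotes, replicates 1 and 2 of the Gpdh1 mutants and each double mutant library, with adjusted p up to 0.099, and with a replicate block within each cross (adjusted p = 0.0645).

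In double mutants, markers of the midgut were higher together with mag and Lip3. Of 12 midgut markers, digestive proteases, amylases and other enterocyte genes, 11 were higher and none lower in double mutants than in double heterozygotes, with a median log2 fold change of 1.45. Their summed level was 6062 to 6462 CPM in double mutants, against 2748 to 3015 CPM in double heterozygotes. In Gpdh1 mutants 7 of the 12 were higher and none lower, with summed levels of 2082 to 2625 CPM, against 1307 to 2677 CPM in Gpdh1 heterozygotes. Between the controls, 7 of the 12 were higher and none lower in double heterozygotes than in Gpdh1 heterozygotes. Neither mag nor Lip3 passed the test in either of these comparisons. Among all genes tested, 25.3% were called higher and 25.9% lower in double mutants. Those shares were 17.9% and 20.2% in Gpdh1 mutants, and 14.1% and 12.3% between the controls. The 2 markers that rose most in double mutants, Mal-A1, a maltase (2.89, adjusted p = 3.45e-06), and alphaTry, a trypsin (2.62, adjusted p = 4.31e-06), had larger log2 fold changes than mag. Of the 2 most abundant, both digestive serine proteases, Jon65Aiv was higher in double mutants by 0.53 on the log2 scale (adjusted p = 0.000675), and Jon99Ciii had 0.16 (adjusted p = 0.0878). No midgut marker was at 0 in all libraries of a group. Relative to the sum of these markers in the same library, mag was highest in double mutants, at 20.8 to 22.2 counts per 1000 midgut marker counts, against 5.59 to 9.81 in double heterozygotes. Lip3 had 2.19 to 2.36 counts per 1000 midgut marker counts in double mutants, against 0.366 to 1.61 in double heterozygotes. Neither pair of ranges overlapped. For Gpdh1 mutants the same ratio of mag was 4.91 to 6.004, against 9.58 to 13.0 in Gpdh1 heterozygotes, again without overlap and with the mutants lower. The sum is carried by a few abundant proteases, so mag and Lip3 were also set against each marker alone, a choice made after seeing the data. mag was higher in double mutants than in double heterozygotes without overlap against 10 of the 12 markers, but not against alphaTry and Mal-A1. Over alphaTry it had 0.587 to 0.618 in double mutants, against 0.416 to 0.831 in double heterozygotes, and over Mal-A1 it had 0.144 to 0.149 in double mutants, against 0.125 to 0.256 in double heterozygotes. Lip3 was higher without overlap against 6 of the 12 markers and overlapped for the other 6. In Gpdh1 mutants mag was lower than in Gpdh1 heterozygotes without overlap against 11 of the 12, and overlapped for Jon65Aiv. In the same comparison Lip3 was lower without overlap against 5, higher against 1 and overlapped for 6. Of these markers 7 were themselves called higher in Gpdh1 mutants, and a ratio to any of those falls for a gene that rose less. What part the marker levels have in the fold changes was not tested.

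**Figure D2:**
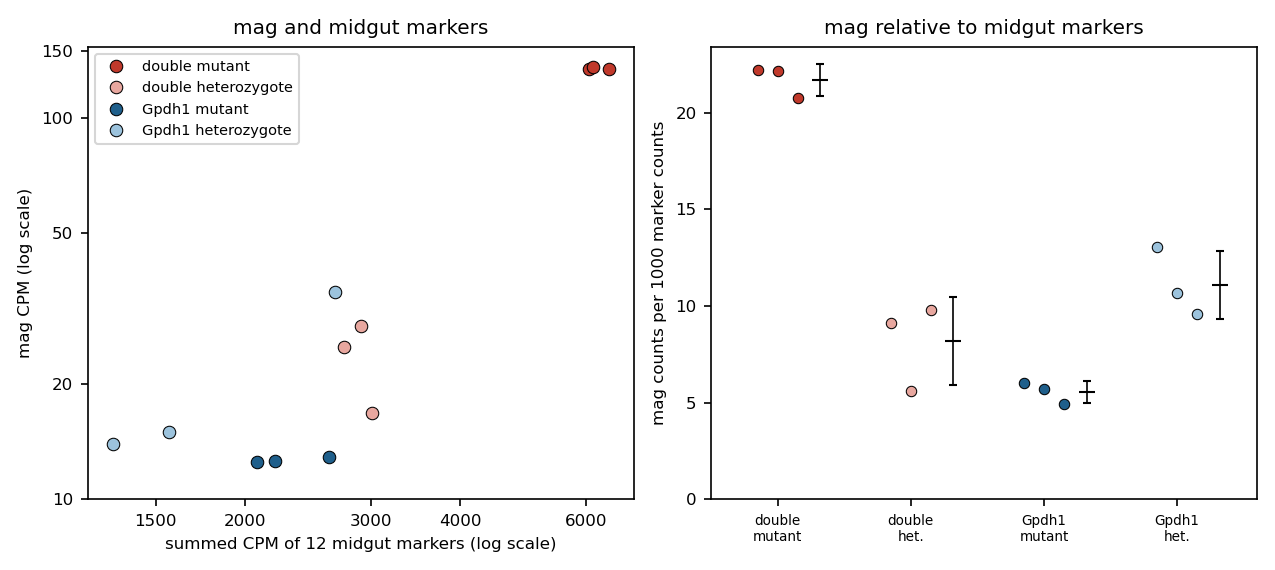
Left, CPM of mag (y axis, log scale) against the summed CPM of 12 midgut markers (x axis, log scale), with a point per library coloured by genotype. Right, mag counts per 1000 midgut marker counts in each library, with bars for the mean ± SD (n = 3): the double mutants lie at 20.8 to 22.2 and the other 9 libraries between 4.91 and 13.0.

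bmm, the adipose triglyceride lipase ortholog, had 37.5, 39.5 and 35.8 CPM in double mutants, against 14.1, 21.9 and 22.5 CPM in double heterozygotes. All 3 double mutant libraries were above all 3 controls, and the log2 fold change was 0.95 (SE 0.175, 95% interval 0.53 to 1.37, adjusted p = 0.00471). Gpdh1 mutants had 40.1, 37.8 and 37.6 CPM, close to the double mutants, against 35.0, 22.7 and 50.3 CPM in Gpdh1 heterozygotes. Here the controls spread widely on both sides of the mutants. The log2 fold change was 0.10 with a 95% interval of -0.49 to 0.68 (adjusted p = 0.789). The effects of the double and the single mutation on bmm differed by 0.85 (SE 0.341), which did not pass (adjusted p = 0.0907), although it did without replicate 2 of the Gpdh1 heterozygotes (1.10, adjusted p = 0.0143) and with DESeq2 (0.88, adjusted p = 0.0399).

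Hsl, the hormone-sensitive lipase ortholog, moved the other way and by less. It had 24.7, 25.1 and 25.5 CPM in double mutants, against 34.2, 27.3 and 30.2 CPM in double heterozygotes. The ranges did not overlap, but the gap between them was small, and the log2 fold change was -0.29 (SE 0.0862, 95% interval -0.49 to -0.08, adjusted p = 0.0308). That call was lost when any of the 6 libraries but replicate 2 of the double heterozygotes was left out (adjusted p 0.0544 to 0.0976), and held without that library (log2 fold change -0.34, adjusted p = 0.00205). It was also lost when libraries were scaled by size alone (-0.12, adjusted p = 0.229). In Gpdh1 mutants Hsl had 34.3, 35.5 and 31.9 CPM, against 36.4, 37.8 and 36.9 CPM in Gpdh1 heterozygotes. The mutants were slightly lower in every library, with a log2 fold change of -0.13 (95% interval -0.27 to 0.01, adjusted p = 0.137) that became 0.03 when libraries were scaled by size alone. The effects differed by -0.16 (adjusted p = 0.296).

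Lip4, another acid lipase family gene, had values of opposite sign in the 2 comparisons, neither of which passed. Double mutants had 14.8, 14.7 and 15.7 CPM, against 10.04, 7.38 and 13.8 CPM in double heterozygotes. All double mutants were above all controls, yet the log2 fold change of 0.53 (SE 0.212, 95% interval 0.02 to 1.04) did not pass (adjusted p = 0.077). It passed without replicate 2 (0.35, adjusted p = 0.0431) or replicate 3 (0.80, adjusted p = 0.00534) of the double heterozygotes, when libraries were scaled by size alone (0.70, adjusted p = 0.0184) and with DESeq2 (adjusted p = 0.00593). In Gpdh1 mutants Lip4 had 20.5, 14.3 and 16.0 CPM, against 26.7, 19.1 and 25.99 CPM in Gpdh1 heterozygotes. The highest mutant library lay above the lowest control, and the log2 fold change of -0.50 (95% interval -0.91 to -0.10) did not pass (adjusted p = 0.0557). It did pass without replicate 2 of the Gpdh1 heterozygotes (-0.64, adjusted p = 0.0228) or replicate 1 of the Gpdh1 mutants (-0.65, adjusted p = 0.0316), and under a replicate block (-0.50, adjusted p = 0.0185). The difference between the effects was 1.04 (SE 0.296, adjusted p = 0.0261), a call lost when any 1 of 6 libraries was left out, where adjusted p ranged from 0.0534 to 0.0558.

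Plin1, the perilipin with a role in stimulated lipolysis, was the most abundant of the 7 genes per kilobase of exon, averaged over the 12 libraries. In double mutants mag was above it, with 91.4 against 61.7 CPM per kilobase. Plin1 had 114.6, 120.8 and 127.5 CPM in double mutants, against 234, 221 and 235 CPM in double heterozygotes. The groups were far apart relative to their spread, and the log2 fold change was -0.93 (SE 0.0598, 95% interval -1.07 to -0.79, adjusted p = 6.38e-05). In Gpdh1 mutants Plin1 had 125, 192 and 168 CPM, against 166, 211 and 146 CPM in Gpdh1 heterozygotes. These groups overlapped, and the log2 fold change was -0.11 (95% interval -0.55 to 0.33, adjusted p = 0.688), or 0.05 when scaled by size alone. The effects differed by -0.82 (SE 0.221, adjusted p = 0.0205), a call lost without replicate 2 or 3 of the Gpdh1 mutants or replicate 1 or 2 of the double mutants (adjusted p 0.0538 to 0.0613).

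Plin2, which protects stored fat, had 115.3, 114.2 and 110.4 CPM in double mutants, against 174, 133 and 172 CPM in double heterozygotes. The lowest control, replicate 2, was still above every double mutant, and the log2 fold change was -0.50 (SE 0.109, 95% interval -0.76 to -0.23, adjusted p = 0.00952). Gpdh1 mutants had 107, 120 and 119 CPM, against 129, 112 and 93.0 CPM in Gpdh1 heterozygotes. Those groups overlapped, with a log2 fold change of 0.05 (95% interval -0.23 to 0.33, adjusted p = 0.746). The effects differed by -0.55 (SE 0.175, adjusted p = 0.0425), but this passed narrowly and was lost without any single library other than replicate 1 of the Gpdh1 heterozygotes or replicate 2 of the double heterozygotes (adjusted p 0.0569 to 0.108). Of 20 alternatives it held in 4, and it was also lost with RLE factors (0.0554), without a filter (0.0503), with the stricter filter (0.0539) and with the replicate block (0.0639, or 0.0886 within each cross).

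**Figure D3:**
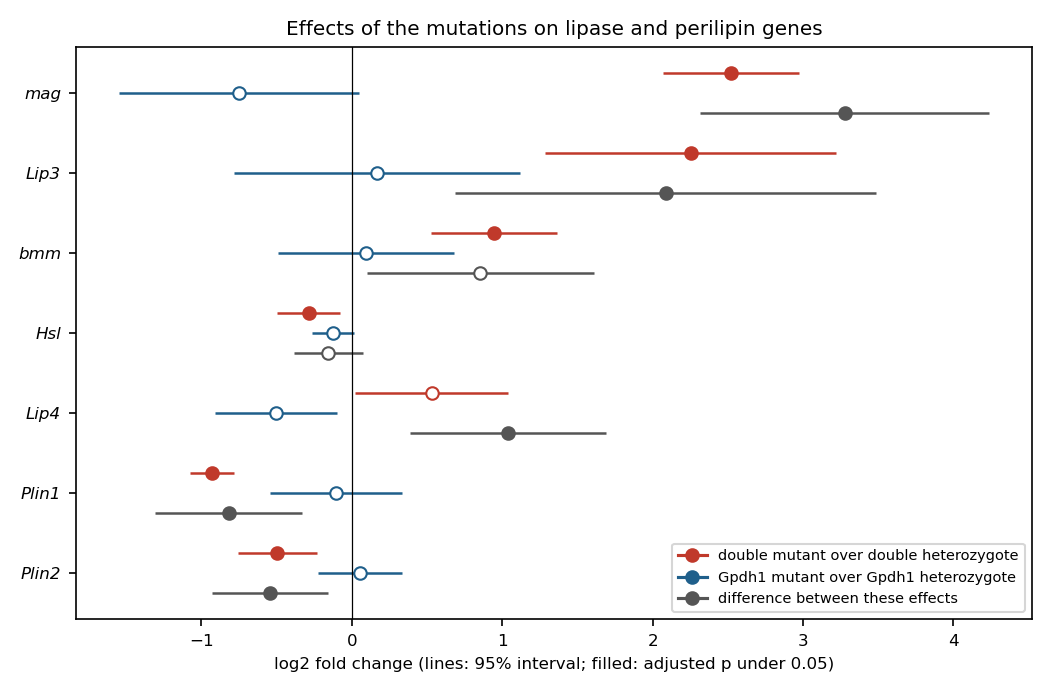
Log2 fold change of each gene (x axis; lines are 95% intervals) for double mutants over double heterozygotes, Gpdh1 mutants over Gpdh1 heterozygotes, and the difference between these effects, with filled points where the adjusted p is under 0.05. Filled points in double mutants run between -0.93 for Plin1 and 2.52 for mag, and no point of the Gpdh1 mutants is filled.

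The double mutant libraries varied less than those of any other group, so the double mutant effects were also computed on the sum of the 3 double mutant libraries, a choice made after seeing the data. This left 1 mutant library against 3 controls, so all of the spread came from the controls and the lone library was assumed to vary as they do. On that assumption mag (log2 fold change 2.52, SE 0.291, adjusted p = 0.0195) and Plin1 (-0.93, SE 0.0977, adjusted p = 0.0163) passed. The other 4 did not, with nearly the same folds and larger errors: bmm had 0.94 (SE 0.287, adjusted p = 0.104), Lip3 2.25 (SE 0.664, adjusted p = 0.0988), Plin2 -0.50 (SE 0.199, adjusted p = 0.169) and Hsl -0.29 (SE 0.155, adjusted p = 0.266). Over all genes, 1555 were called this way, against 5447 with 3 separate double mutant libraries. Without replicate 2 of the double heterozygotes, which stood apart, the 6 calls held, with log2 fold changes of 2.35 for mag, 1.86 for Lip3, 1.06 for bmm, -0.34 for Hsl, -0.94 for Plin1 and -0.59 for Plin2.

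Both crosses carried their own control, and these controls were not alike for the lipase and perilipin genes. In double heterozygotes relative to Gpdh1 heterozygotes, 1 of the 7 genes was higher and 3 were lower, where 14.1% of 10880 genes were called higher and 12.3% lower (31.1% and 9.27% when scaled by size alone, with the median moved by 0.13). Lip4 was lower, with a mean of 10.4 ± 3.24 CPM in double heterozygotes, against 23.9 ± 4.22 CPM in Gpdh1 heterozygotes (log2 fold change -1.21, SE 0.212, adjusted p = 0.00293). bmm was also lower, at 19.5 ± 4.70 CPM in double heterozygotes, against 36.0 ± 13.8 CPM in Gpdh1 heterozygotes (-0.89, SE 0.245, adjusted p = 0.0223). Both genes were thus at a lower control level in the cross with Ldh[16]. Hsl was lower by a smaller step (-0.28, adjusted p = 0.0194). Plin2 was higher, at 160 ± 23.1 CPM in double heterozygotes, against 111 ± 17.9 CPM in Gpdh1 heterozygotes (0.52, SE 0.124, adjusted p = 0.0122). For Plin1 the value was 0.40 (adjusted p = 0.082), and neither mag (0.14, adjusted p = 0.777) nor Lip3 (0.02, adjusted p = 0.98) passed. When only the 6 control libraries were fitted, Lip4 alone was called. The bmm call was lost without replicate 3 of the Gpdh1 heterozygotes (-0.57, adjusted p = 0.0745) or replicate 1 of the double heterozygotes (-0.70, adjusted p = 0.0708), and the Hsl call without replicate 2 of either control (adjusted p = 0.0607 and 0.0507) or when scaled by size alone (-0.15, adjusted p = 0.107). Without replicate 1 of the Gpdh1 heterozygotes, mag passed (0.69, adjusted p = 0.0195), and without their replicate 2 Plin1 did (0.56, adjusted p = 0.0306), as it did without replicate 1 of the Gpdh1 mutants (0.38, adjusted p = 0.0471) and when scaled by size alone (0.53, adjusted p = 0.0157). The Ldh[16] allele and the cross cannot be told apart between these controls.

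Set against Gpdh1 mutants directly, double mutants differed in mag, Lip3 and Hsl. Of the 7 genes, 2 were higher and 1 was lower, where 18.9% of 10880 genes were called higher and 20% lower (32.3% and 13.4% when scaled by size alone, with the median moved by 0.13). mag was 10.7-fold higher, at 135 ± 0.967 CPM in double mutants, against 12.7 ± 0.198 CPM in Gpdh1 mutants (log2 fold change 3.41, SE 0.322, adjusted p = 2.26e-05). Lip3 was 4.32-fold higher, at 14.3 ± 0.976 CPM in double mutants, against 3.31 ± 1.33 CPM in Gpdh1 mutants (2.11, SE 0.420, adjusted p = 0.00258). Hsl was lower, at 25.1 ± 0.406 CPM in double mutants, against 33.9 ± 1.84 CPM in Gpdh1 mutants (-0.43, SE 0.0738, adjusted p = 0.000989). These 3 calls held in all 20 alternatives run on single genes, with adjusted p up to 0.0453. bmm (-0.03, 95% interval -0.56 to 0.49, adjusted p = 0.925), Lip4 (-0.17, 95% interval -0.62 to 0.29, adjusted p = 0.554) and Plin2 (-0.03, 95% interval -0.30 to 0.25, adjusted p = 0.885) did not pass, and their intervals leave room for differences of those sizes. Plin1 had a log2 fold change of -0.42 (95% interval -0.76 to -0.07), just short of the threshold (adjusted p = 0.0548). It passed without replicate 1 of the Gpdh1 mutants (-0.58, adjusted p = 0.00899), without replicate 2 (-0.42, adjusted p = 0.0304) or 3 (-0.42, adjusted p = 0.0439) of the Gpdh1 heterozygotes, with DESeq2 (-0.41, adjusted p = 0.0371) and in a fit of only these groups (-0.43, adjusted p = 0.0255). In the same comparison 10 of the 12 midgut markers were higher and none lower (median log2 fold change 1.34), and their part in the result was not tested. Gpdh1 itself was lower in double mutants than in Gpdh1 mutants (log2 fold change -2.13, adjusted p = 4.48e-07), although both carried the same Gpdh1 alleles by their labels. This comparison shares its mutant libraries with those above.

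Ordered by mean level, mag and Lip3 were highest in double mutants, apart from the next group without overlap, and the order of Lip3 among the other 3 groups was within their spread. For mag, double heterozygotes and Gpdh1 heterozygotes overlapped and Gpdh1 mutants lay below both. Plin1 and Plin2 were highest in double heterozygotes, apart from the next group, while the remaining groups overlapped with their neighbours. bmm and Lip4 were lowest in double heterozygotes, again apart from the next group, with the remaining neighbours overlapping. Hsl was highest in Gpdh1 heterozygotes and lowest in double mutants, both apart from their neighbours. Per kilobase of exon, averaged over the 12 libraries, levels were 87.7 CPM for Plin1, 32.6 for mag, 27.2 for Plin2, 13.5 for bmm, 8.22 for Hsl, 6.99 for Lip4 and 4.11 for Lip3. By that level Plin1 was above 90.9% and Lip3 above 32.1% of 10799 genes.

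Ratios of raw counts within a library do not depend on the scaling. bmm over Plin1 was 0.280 to 0.327 in double mutants, against 0.0600 to 0.0992 in double heterozygotes, without overlap. In Gpdh1 mutants it was 0.197 to 0.321, against 0.107 to 0.345 in Gpdh1 heterozygotes, with full overlap. The double mutants overlapped with both of these groups in this ratio, and the double heterozygotes lay below every other library. bmm over Hsl, the ratio of the droplet lipases, was 1.40 to 1.58 in double mutants, against 0.411 to 0.802 in double heterozygotes. This ratio was higher in double mutants than in any other library. In Gpdh1 mutants it was 1.07 to 1.18, against 0.601 to 1.36 in Gpdh1 heterozygotes. Plin1 over Plin2 was 0.994 to 1.16 in double mutants, against 1.35 to 1.66 in double heterozygotes, so the perilipins fell unequally. It was 1.17 to 1.60 in Gpdh1 mutants, against 1.29 to 1.88 in Gpdh1 heterozygotes. mag over Lip3 was 8.80 to 10.1 in double mutants, within the 5.65 to 15.3 of the double heterozygotes, and 2.66 to 5.19 in Gpdh1 mutants, below the 6.14 to 8.15 of the Gpdh1 heterozygotes.

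**Figure D4:**
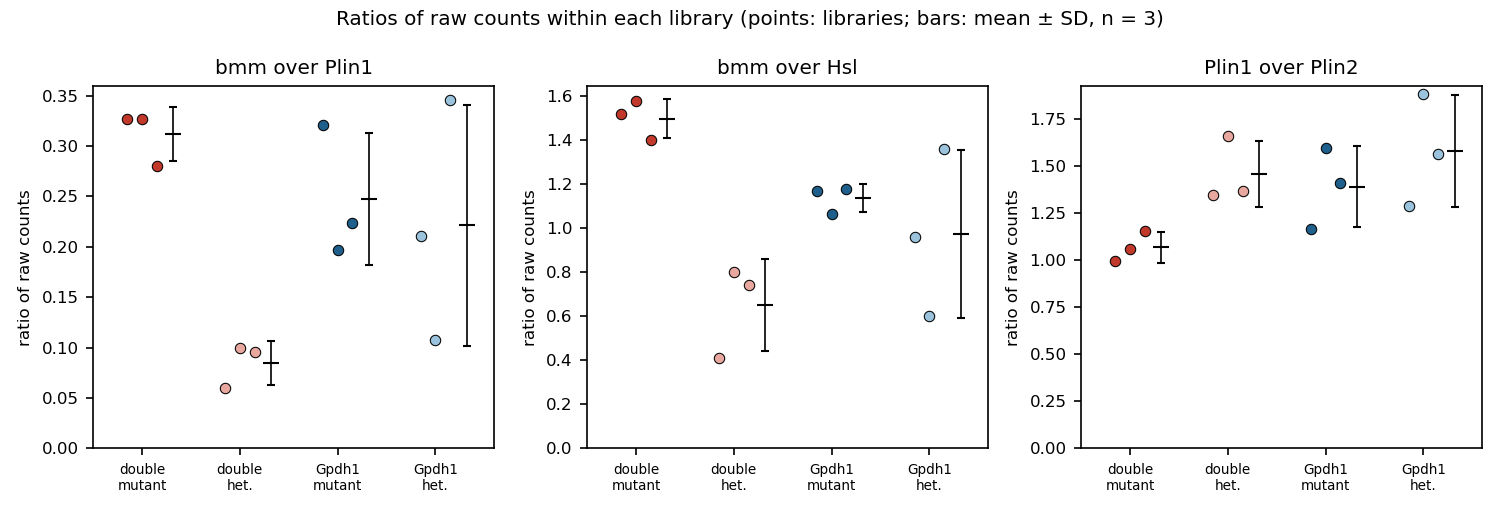
Ratios of raw counts (y axes, from 0) of bmm over Plin1, bmm over Hsl and Plin1 over Plin2 in each library, by genotype (x axes), with bars for the mean ± SD (n = 3). Double mutants lie above double heterozygotes in the first 2 ratios and below them in the last. In the first ratio they overlap with Gpdh1 mutants and Gpdh1 heterozygotes.

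In double mutants, most fat body markers were lower together with the perilipins. Of the 9 fat body markers tested in double mutants, 6 were lower and 1 was higher than in double heterozygotes (median log2 fold change -0.79), with summed levels of 5620 to 5848 CPM over 11 markers in double mutants, against 8560 to 13648 CPM in double heterozygotes. In Gpdh1 mutants 5 of 10 were lower and 3 higher, with 5715 to 6874 CPM in Gpdh1 mutants, against 11976 to 18412 CPM in Gpdh1 heterozygotes, while neither perilipin passed there. Of the 2 most abundant, the lipoprotein apolpp had log2 fold changes of -0.70 in double mutants (adjusted p = 0.00168) and -0.69 in Gpdh1 mutants (adjusted p = 0.00323), and fon, a clotting factor, had -0.89 (adjusted p = 0.000218) and -0.55 (adjusted p = 0.00646). The larval storage protein Lsp1beta, nearly as abundant as fon, fell most of the 3, with -7.55 in double mutants (adjusted p = 0.000457) and -5.26 in Gpdh1 mutants (adjusted p = 0.00123). The summed levels are carried by a few abundant markers. Lsp1beta alone was at 397 to 2582 CPM in double heterozygotes, against 8.62 to 9.25 CPM in double mutants. In double mutants Apoltp (0.08, adjusted p = 0.237) and Tsf1 (0.14, adjusted p = 0.419) did not pass. No fat body marker was at 0 in all libraries of a group. Lsp2 and Fbp2 were at most 1.17 CPM in any library, and Lsp1alpha was at 0.124 to 0.339 CPM over both mutants. Fbp1, the 1 marker called higher in double mutants, had 3.53 to 3.90 CPM there, against 0.0415 to 0.0761 CPM in double heterozygotes, and 0.994 to 1.74 CPM in Gpdh1 mutants, against 0 to 0.0898 CPM in Gpdh1 heterozygotes. Relative to apolpp, Plin1 had 27.3 to 32.3 counts per 1000 apolpp counts in double mutants, against 32.5 to 38.8 in double heterozygotes, ranges that nearly met. In Gpdh1 mutants Plin1 had 33.4 to 41.3 per 1000, against 21.0 to 33.6 in Gpdh1 heterozygotes. bmm had 8.92 to 9.46 counts per 1000 apolpp counts in double mutants, against 1.95 to 3.84 in double heterozygotes, and 8.11 to 10.7 in Gpdh1 mutants, against 3.61 to 7.24 in Gpdh1 heterozygotes. On that base bmm was higher without overlap in both mutants, but the base matters. Against each of the 7 fat body markers with at least 10 counts in every library, bmm was higher in double mutants than in double heterozygotes without overlap for all 7, and higher in Gpdh1 mutants than in Gpdh1 heterozygotes for 3 (apolpp, Lsp1beta and Lsp1gamma). Over Apoltp, a lipid transfer protein that was itself higher in Gpdh1 mutants (0.40, adjusted p = 0.00344), bmm had 0.0888 to 0.101 in Gpdh1 mutants, against 0.0743 to 0.164 in Gpdh1 heterozygotes. Plin1 was lower in double mutants without overlap against 4 of the 7 markers and higher against 2, Lsp1beta and Lsp1gamma. Plin2 was lower against 1 and higher against 5, which include those 2, as do the 7 of bmm. Lsp1beta itself had a log2 fold change of -7.55 in this comparison, and Lsp1gamma had -7.93. A ratio to either therefore rises for any gene that fell less. Relative to Gpdh1 heterozygotes, Gpdh1 mutants had Plin2 lower against 1 marker and higher against 4, again with those 2. Plin1 was lower there against 1, higher against the same 2 and overlapped for 4. Muscle markers were lower in both, with 10 of 11 lower in double mutants and 9 of 11 in Gpdh1 mutants. Of 4 oenocyte markers tested, 1 was higher and 1 lower in double mutants, and none higher and 1 lower in Gpdh1 mutants. For all these marker counts, the shares over all genes tested were 25.3% higher and 25.9% lower in double mutants. In Gpdh1 mutants they were 17.9% and 20.2%, and the oenocyte counts were near these shares. The part of these markers in the results for the lipases and perilipins was not tested.

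Other genes of lipid breakdown were read from lists chosen by gene family and pathway. Among fly relatives of mammalian pancreatic lipase, 10 were higher and 5 lower of 24 tested in double mutants (median log2 fold change 0.22), and 4 higher and 4 lower of 23 in Gpdh1 mutants (median 6.57e-05). Over all genes tested, 25.3% were higher and 25.9% lower in double mutants, and 17.9% and 20.2% in Gpdh1 mutants, and the counts of lower genes and those in Gpdh1 mutants were near these shares. CG6296 had 279 ± 7.14 CPM in double mutants, against 39.9 ± 3.51 CPM in double heterozygotes (2.81, adjusted p = 3.45e-06), and it was also higher in Gpdh1 mutants, at 122 ± 6.97 CPM, against 14.4 ± 7.73 CPM in Gpdh1 heterozygotes (3.09, adjusted p = 0.00092). CG5966 (1.87, adjusted p = 9.87e-05) and CG4267 (0.64, adjusted p = 0.000205) were higher in double mutants. In Gpdh1 mutants CG5665 (-1.75, adjusted p = 0.000866) and CG34447 (-1.42, adjusted p = 0.00135) were lower. Of 18 acid lipase relatives of mag, Lip3 and Lip4, 7 were tested, with 2 higher and none lower in double mutants (CG2772, 1.46, adjusted p = 2.9e-05, and CG3635, 1.04, adjusted p = 0.000214). In Gpdh1 mutants 1 was higher (CG3635, 0.98, adjusted p = 0.00247) and 2 were lower (CG31871, -0.65, adjusted p = 0.0122, and CG31091, -1.91, adjusted p = 0.0124). The median of these 7 was -0.73 in double mutants and -0.59 in Gpdh1 mutants, opposite in sign to the calls in double mutants.

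Among 4 intracellular hydrolases of glycerolipids, 2 were higher and 1 lower in double mutants, and 3 were higher and none lower in Gpdh1 mutants. The shares over all genes tested were 25.3% higher and 25.9% lower in double mutants, and 17.9% and 20.2% in Gpdh1 mutants. puml (pummelig), a hydrolase of lipid droplets, rose in both, at 66.5 ± 2.48 CPM in double mutants, against 32.2 ± 2.90 CPM in double heterozygotes (1.04, adjusted p = 8.47e-05), and at 77.3 ± 3.81 CPM in Gpdh1 mutants, against 29.3 ± 1.23 CPM in Gpdh1 heterozygotes (1.40, adjusted p = 8.56e-05). Unlike bmm, puml thus passed in both mutants. sws, a phospholipase, was higher in both (0.33, adjusted p = 0.00693, and 0.28, adjusted p = 0.0124), PAPLA1, a phospholipase A1, was lower in double mutants (-0.28, adjusted p = 0.00583), and inaE, a diacylglycerol lipase, was higher in Gpdh1 mutants (0.44, adjusted p = 0.0163).

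Of 6 other lipid droplet proteins, 1 was higher and 2 lower in double mutants, and 2 were higher and 2 lower in Gpdh1 mutants. With so few genes these counts are set beside shares over all genes of 25.3% higher and 25.9% lower in double mutants. In Gpdh1 mutants those shares were 17.9% and 20.2%. Seipin, which acts in droplet formation, was higher in double mutants (0.38, adjusted p = 0.00666) and in Gpdh1 mutants (0.92, adjusted p = 0.00111). sturkopf, a droplet-associated hydrolase, was lower in both (-0.28, adjusted p = 0.00446, and -0.46, adjusted p = 0.00131). Cct1, an enzyme that makes the phospholipid of droplet surfaces, was lower in double mutants (-0.37, adjusted p = 0.00195) and higher in Gpdh1 mutants (0.45, adjusted p = 0.00571). In the list of fasting and adipokinetic hormone signalling genes, 6 of 12 were higher and 1 lower in double mutants, and 2 higher and 1 lower in Gpdh1 mutants. The same shares over all genes apply to these counts. sugarbabe (sug), a sugar-responsive transcription factor, was higher in double mutants (0.97, adjusted p = 0.00237). In Gpdh1 mutants sug had 0.73 (adjusted p = 0.103), and the difference between these effects did not pass (0.25, adjusted p = 0.679). Hr96, the nuclear receptor upstream of mag, was higher in double mutants (0.39, adjusted p = 0.00505) and in Gpdh1 mutants (0.24, adjusted p = 0.0247), as was Hnf4 (0.30, adjusted p = 0.00725, and 0.30, adjusted p = 0.0107), a nuclear receptor that drives lipid catabolism. foxo, a transcription factor active in fasting, was lower in Gpdh1 mutants (-0.33, adjusted p = 0.00307).

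**Figure D5:**
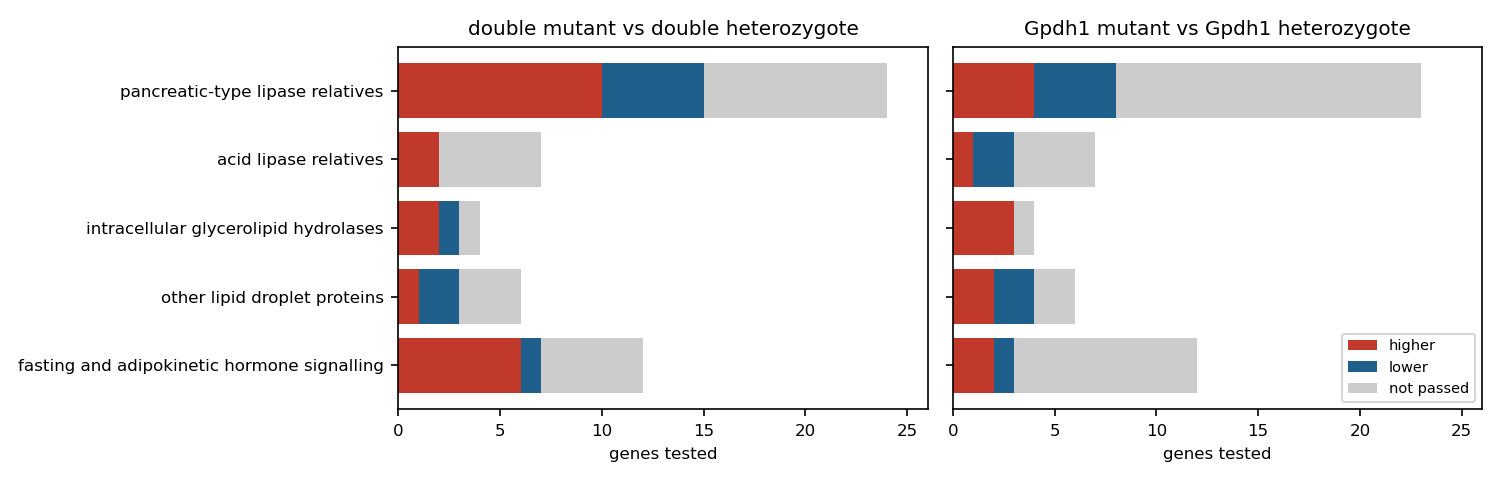
Number of genes tested (x axes) in 5 lists around the lipases and droplet proteins, split into higher, lower and not passed (adjusted p under 0.05), for double mutants against double heterozygotes (left) and Gpdh1 mutants against Gpdh1 heterozygotes (right). The list of pancreatic-type lipase relatives has 10 higher and 5 lower of 24 on the left, and 4 higher and 4 lower of 23 on the right.

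Over the 12 libraries, as a description, the genes whose log2 CPM followed each lipase or perilipin most closely among 10879 others were CG4839 (Pearson r = 0.991) and CG5506 (0.978) for mag, and Vha26 (0.948), a proton pump subunit, and CG16965 (0.945) for Lip3. For bmm they were CG17264 (0.942) and CheB42c (0.910), for Hsl yellow-c (0.980) and CG4017 (0.973), and for Lip4 CG30203 (0.936) and Obp47b (0.923). For Plin1 they were Col4a1 (0.940) and vkg (0.939), which encode the collagen IV chains, and for Plin2 usp (0.910), a nuclear receptor, and CG6013 (0.890). Among themselves, mag and Lip3 had r = 0.89, Plin1 and Plin2 had 0.71, and bmm had -0.78 with Plin1 and -0.82 with Plin2. In the 6 heterozygote libraries alone these were 0.80, 0.80, -0.93 and -0.80. The values over 12 libraries carry the differences between the 4 groups, and those over the heterozygotes the difference between the 2 controls.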

How the data were processed

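Raw counts per gene were deposited by the authors for 12 libraries of whole larvae, 4 genotypes with 3 libraries each. The submitters' processing notes name bcl2fastq 2.20.0.422, cutadapt 1.12, HISAT2 2.1.0 and HTSeq 0.9.0; the genome build and strand setting of the counts are not given in the sources used here, and the methods of the study describe another quantification (Salmon with DESeq2). The 5 summary lines were left out of library sizes: 0.736 to 1.04% of reads had no feature, 1.97 to 2.17% were ambiguous and 8.06 to 14.7% did not align uniquely. Symbols and positions came from an Ensembl annotation (BDGP6.54), in which Plin1 and Plin2 are listed as Lsd-1 and Lsd-2.

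Counts were tested with edgeR 4.0.16 (limma 3.58.1, R 4.3.3) by quasi-likelihood after filterByExpr (minimum count 10) and TMM scaling, with Benjamini-Hochberg adjustment over all genes tested and a threshold of 0.05. Each mutant was fitted with its own control, and the difference and the comparisons between controls and between mutants were fitted over all 12 libraries. Log2 CPM for correlations used a prior count of 2. Scripts were tested on simulated data. Alternatives were library scaling (RLE, size only), other filters on low counts, DESeq2 1.42.0, the replicate number as a block, other sets of libraries and leaving out each library; summing the double mutant libraries and the ratios to single markers were added after seeing the data. The members and gene lists were chosen with earlier results of these data known. Named were all 7 genes, at most 3 genes per pathway list and comparison by smallest adjusted p, the 2 most abundant markers per list where given, and the 2 genes most correlated with each member; other markers were named for their levels or fold changes after seeing them. Replicate numbers did not pair the libraries.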

Additional observations from a re-analysis of the deposited data

Results flagged for a closer look

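The effect of the double mutation differed from that of the Gpdh1 mutation alone, by the test of the difference itself over 12 libraries (edgeR's quasi-likelihood test, Benjamini-Hochberg adjusted p), for 5 of the 7 genes, where 12% of all genes tested passed upward and 13.5% downward. For mag the log2 fold change was 2.52 with both genes mutated and -0.75 with Gpdh1 alone mutated (-0.19 without replicate 1 of the Gpdh1 heterozygotes), and these differed by 3.28 (SE 0.434, adjusted p = 0.00054). Lip3 had 2.25 and 0.17, a difference of 2.09 (SE 0.634, adjusted p = 0.0341). For Lip4 the values were 0.53 and -0.50, a difference of 1.04 (SE 0.296, adjusted p = 0.0261), with neither effect passing alone. Plin1 had -0.93 and -0.11, a difference of -0.82 (SE 0.221, adjusted p = 0.0205). Plin2 had -0.50 and 0.05, a difference of -0.55 (SE 0.175, adjusted p = 0.0425). Of 20 alternatives, the call held in 20 for mag, 15 for Plin1, 13 for Lip4, 12 for Lip3 and 4 for Plin2. Each of these differences also contains the difference between the controls of the crosses. That was -1.21 for Lip4 and 0.52 for Plin2, both called, and 0.40 for Plin1, 0.14 for mag and 0.02 for Lip3, none of them called. Between the mutants themselves, double mutants over Gpdh1 mutants had -0.17 for Lip4 (adjusted p = 0.554) and -0.03 for Plin2 (adjusted p = 0.885). Plin1 had -0.42 there (adjusted p = 0.0548), and none of these 3 was called. In that comparison mag (3.41) and Lip3 (2.11) were called.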

How the results depend on the processing

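Over single genes, 505 values kept direction and side of the threshold, 55 lost a call, 20 gained one and 22 changed sign, none of the last with a call. In Gpdh1 mutants, 2 genes were lower with DESeq2, 1 with the replicate block and 0 to 1 leaving out each library, and size-only scaling gave 0.0319 for Hsl and 0.0536 for Plin1. Leaving out libraries there gave -0.98 to -0.19 for mag, -0.15 to 0.41 for bmm, -0.20 to 0.66 for Lip3, -0.242 to 0.0593 for Plin1 and -0.0620 to 0.17 for Plin2. In double mutants, summing their libraries left 1 gene higher and 1 lower, and a log2 limit of 1 left 0 lower. For the difference, members lower numbered 1 with RLE factors, without a filter, with at least 10 counts everywhere, or with the replicate block, also within each cross, and 0 with summed double mutants or the log2 limit. Leaving out libraries gave 1 to 4 higher and 0 to 2 lower, and summing gave 1 higher. Between controls, size-only scaling gave 2 higher, a fit of only those groups 0 higher and 1 lower, the log2 limit 0 higher and 1 lower, and leaving out libraries 1 to 2 higher. Lip3 there was -0.0115 with the stricter filter and -0.37 to 0.51 leaving out libraries, and mag -0.0876 to 0.694. Between mutants, DESeq2 and a fit of only those groups gave 2 lower, the log2 limit 0 and leaving out libraries 1 to 2. Size-only scaling gave 0.10 for bmm and 0.10 for Plin2, and leaving out libraries -0.0656 to 0.00296 and -0.0794 to 0.0131. Over all genes, summing left 1555 calls in double mutants (5447 before), 1044 for the difference (2781) and 1770 between mutants (4238); between controls size-only scaling gave 4397 and the fit of only those groups 859 (2874). Fewer libraries leave fewer degrees of freedom; other causes were not tested. Deviations of same-numbered libraries correlated at -0.22 to -0.10 in the Gpdh1 cross and -0.01 to 0.02 in the double cross, so the number was not used to pair libraries; with the replicate block 3243 and 4707 genes were called, against 4042 and 5447, and the Hsl call in double mutants was lost (adjusted p = 0.0559). Lip3, with as few as 29 reads, is the member most limited by depth.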
